A study of Mus musculus with 24 samples.

Results

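The 10 genes described here are those by which melanocytes and pigmented melanomas are recognised: the lineage transcription factors Mitf and Sox10, the melanin enzymes Tyr, Tyrp1 and Dct, the melanosome proteins Pmel and Mlana, and the melanosomal transporters and receptor Slc45a2, Oca2 and Gpr143. They were taken by name from a list of melanocyte genes, with earlier results of these data known, and all 10 of 10 were present among the 55335 genes measured. The samples were 24 RNA sequencing libraries of mouse tumours in 8 groups of 3. B16, a mouse melanoma line, gave 4 groups: Chek2 knock-out (KO) tumours under anti-PD-1, KO tumours under PBS, parental Chek2-WT tumours under anti-PD-1 and WT tumours under PBS. MC38, a mouse colon carcinoma line that makes no pigment, gave the same 4 groups. Chek2 encodes the DNA damage checkpoint kinase CHK2, and anti-PD-1 is an antibody against an inhibitory receptor of T cells. The labels do not say whether the KO cells were 1 clone, nor from how many mice the libraries of each group were made, so p-values here measure the spread between these libraries, which may be technical. They do not give the genotype of the host mice, whose cells are part of each tumour sample.

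Melanin is made inside melanosomes, organelles that mature from a striated protein matrix to a pigment-filled granule. SOX10 switches on Mitf, and the MITF protein in turn binds E-box and M-box sequences in the promoters of the pigment genes and drives their transcription. The loss of these genes marks dedifferentiation in melanoma, and several of their products, among them those of Tyr, Tyrp1, Dct, Pmel and Mlana, are antigens that T cells recognise.

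On mm10 the annotation places Mitf (ENSMUSG00000035158) on chromosome 6 from 97807052 to 98021349 on the plus strand and Sox10 (ENSMUSG00000033006) on chromosome 15 from 79154908 to 79165240 on the minus strand. Tyr (ENSMUSG00000004651) lies on chromosome 7 from 87424771 to 87493512, minus strand, Tyrp1 (ENSMUSG00000005994) on chromosome 4 from 80834123 to 80851719, plus strand, and Dct (ENSMUSG00000022129) on chromosome 14 from 118012790 to 118052244, minus strand. The others are on the plus strand. Pmel (ENSMUSG00000025359) lies on chromosome 10 from 128704195 to 128720238 and Mlana (ENSMUSG00000024806) on chromosome 19 from 29697824 to 29708634. Slc45a2 (ENSMUSG00000022243) lies on chromosome 15 from 11000721 to 11029233, Oca2 (ENSMUSG00000030450) on chromosome 7 from 56239760 to 56536518 and Gpr143 (ENSMUSG00000025333) on chromosome X from 152781921 to 152808646. Values are given per gene, so isoforms are not told apart.

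The promoters of the tyrosinase gene family are shown because the 3 enzyme genes share a known binding sequence there and yet differed from each other between the tumours. The 250 bases before the RefSeq start on GRCm38.p6 are given 5′ to 3′ on the strand of the gene, at chr7:87493513-87493762 on the minus strand for Tyr, chr4:80833963-80834212 on the plus strand for Tyrp1 and chr14:118052247-118052496 on the minus strand for Dct. Capitals mark GTCATGTGCT, the longest run of letters that all 3 windows share, which is the core of the M-box.

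Tyr: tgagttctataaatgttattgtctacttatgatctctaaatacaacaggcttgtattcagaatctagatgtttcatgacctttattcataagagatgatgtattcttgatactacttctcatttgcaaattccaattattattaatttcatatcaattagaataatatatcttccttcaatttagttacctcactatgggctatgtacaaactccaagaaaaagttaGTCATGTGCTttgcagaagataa
Tyrp1: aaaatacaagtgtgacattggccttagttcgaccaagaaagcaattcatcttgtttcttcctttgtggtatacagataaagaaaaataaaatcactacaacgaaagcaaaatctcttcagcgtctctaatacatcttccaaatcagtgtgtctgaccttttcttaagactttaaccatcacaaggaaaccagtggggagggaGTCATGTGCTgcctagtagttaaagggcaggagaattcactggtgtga
Dct: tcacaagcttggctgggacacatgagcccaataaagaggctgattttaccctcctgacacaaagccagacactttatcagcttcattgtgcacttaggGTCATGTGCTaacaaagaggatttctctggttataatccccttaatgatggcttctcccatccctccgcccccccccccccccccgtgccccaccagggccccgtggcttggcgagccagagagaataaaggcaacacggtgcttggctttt

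All 3 windows held GTCATGTGCT on the strand of the gene, 23 to 14 bases before the RefSeq start in Tyr, 48 to 39 bases in Tyrp1 and 152 to 143 bases in Dct. The Tyrp1 window ends at 80834212, past the gene start of 80834123 in the annotation above. Its motif thus lies inside the gene as annotated there, and the distance holds for the RefSeq start only. The longest run shared by Tyr and Tyrp1, AGTCATGTGCT, contains it and has 1 letter more, and it was not in the Dct window. On either strand the shorter motif occurred in 51 of 32817 mouse promoter windows of the same length (0.155%) and the longer in 7 (0.0213%). RefSeq windows were matched for 5 of the 10 genes, 7 windows in all, since Mitf has 3 of them. The last of its windows, chr6:97991533-97991782 on the plus strand, lies at the most downstream start, the melanocyte-specific one. It is shown for its capitals, TGACGTCA, the palindromic cAMP response element, 153 to 146 bases before the start and present in 1.55% of windows.

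Mitf: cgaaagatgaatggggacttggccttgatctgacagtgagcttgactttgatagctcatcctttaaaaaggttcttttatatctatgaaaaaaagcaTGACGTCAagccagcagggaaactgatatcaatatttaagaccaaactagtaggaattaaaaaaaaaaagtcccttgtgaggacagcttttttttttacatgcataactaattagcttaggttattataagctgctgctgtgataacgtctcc

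The E-box CATGTG, which lies inside the M-box, was found once more in Dct and once in Oca2 on the opposite strand (12.3% of all windows held it). CACGTG, held by 6.02% of windows, was in none of the 7. A match describes the letters of these windows only.

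Before the pigment genes were compared, Chek2 was measured in each library as a check of the labels. In B16 it averaged 6.42 ± 0.381 FPKM in KO anti-PD-1, 5.66 ± 0.0218 in KO PBS, 8.22 ± 0.936 in WT anti-PD-1 and 7.60 ± 0.389 in WT PBS (SD, n = 3 each), and every KO library lay below every WT library. The log2 difference between KO and WT was -0.31 under anti-PD-1 (limma adjusted p = 0.0154), -0.37 under PBS, which was not called (0.106), and -0.34 averaged over treatments (0.00285). In MC38 it was 3.06 to 3.37 FPKM in KO anti-PD-1, 1.92 to 2.40 in KO PBS, 5.01 to 5.72 in WT anti-PD-1 and 4.61 to 6.14 in WT PBS, again with every KO library below every WT library. FPKM is the fragment count scaled to transcript length and library size, and it allows levels of different genes to be compared per length. Depth, estimated from the lowest values, came to 13210000 to 24570000 reads per library. Within B16 it was 21410000, 24570000 and 19760000 in KO anti-PD-1, above the 13660000 to 17570000 of the other 9 libraries. The 3 B16 KO anti-PD-1 libraries stood apart from the other 21 in their summed FPKM, at 375193 to 398474 against 310868 to 344059. They also differed with transcript length. The deviation of 11149 protein-coding genes from their mean over the 12 B16 libraries had a Spearman correlation with the longest annotated transcript of -0.639 to -0.534 in these 3 libraries and of 0.202 to 0.446 in the other 9. All 3 libraries of the group carry this trend and no other B16 library does, so the group and the trend cannot be told apart by leaving a library out. The called differences that rest on these libraries are also given with the trend on transcript length removed.

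Every one of the 10 genes was higher in B16 than in MC38 tumours. Summed over the 10 genes, FPKM was 5120 to 6573 in the 12 B16 libraries, or 1.30% to 1.94% of the library, against 1.01 to 4.03 in the 12 MC38 libraries. Limma called 10 of 10 higher in WT PBS tumours, where 62.3% of the 15655 genes tested were called in either direction and 31.2% were called higher. Averaged over the 4 groups it called 10 of 10 higher, where 79.6% of genes were called and 36.2% were higher. Called means a Benjamini-Hochberg adjusted p under 0.05 over all genes tested, on log2(FPKM + 1).

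**Figure D1:**
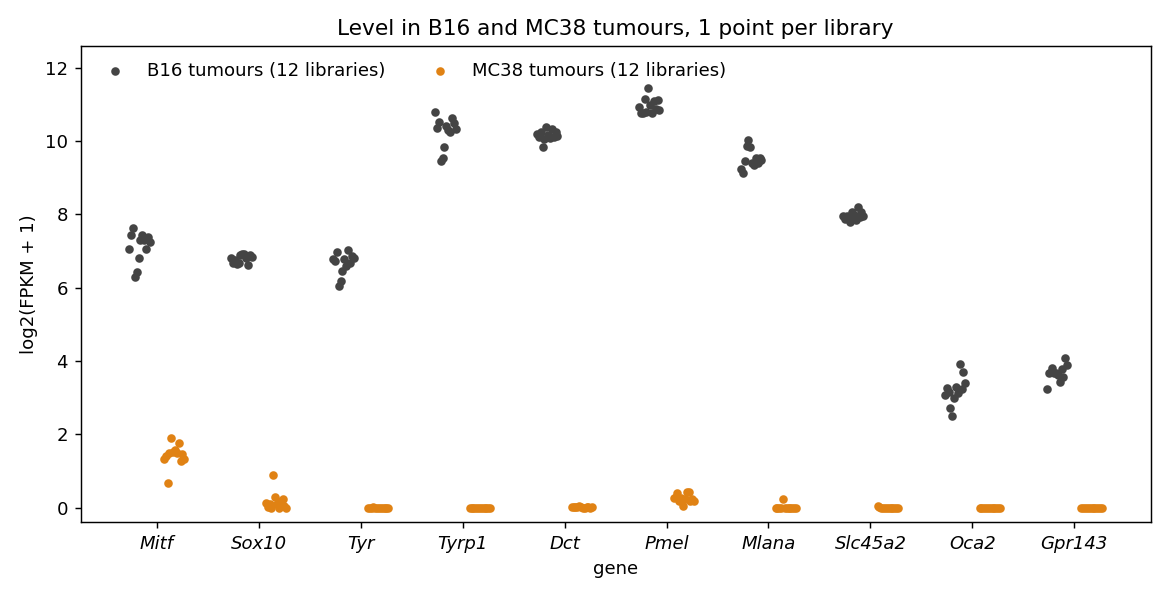
Log2(FPKM + 1) of the 10 genes (x axis) in the 12 B16 libraries (dark) and the 12 MC38 libraries (orange), with 1 point per library. All B16 points lie above all MC38 points of the same gene, and in MC38 the 9 genes other than Mitf stay under 1 FPKM in every library.

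Within B16 the levels spanned a wide range per length. Pmel, whose product forms the amyloid fibrils of the melanosome matrix, stood highest, at 1744 to 2786 FPKM over the 12 libraries with a median of 1908. Tyrp1, an enzyme of brown-black eumelanin synthesis, had a median of 1306 (703 to 1784) and Dct, the dopachrome tautomerase that acts after tyrosinase, 1134 (919 to 1343), and the ranges of neighbours in this order overlapped. Mlana, whose product MART-1 works with PMEL in early melanosomes, followed with a median of 711 (556.5 to 1038), which overlapped Dct and Tyrp1.

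Slc45a2, a melanosomal transporter needed for a pH at which tyrosinase works, ran from 219 to 293.7 FPKM, below every library of the genes above it. Mitf (median 154.4), Sox10 (110.8) and Tyr, the rate-limiting enzyme of melanin synthesis (107.4), came next with ranges that overlapped. Gpr143, a receptor of the melanosome membrane, had a median of 11.7 and Oca2, an anion channel of the melanosome, 8.18, overlapping ranges at the bottom of the order. MC38 tumours listed Tyrp1, Oca2 and Gpr143 at 0 in all 12 libraries, Tyr and Mlana at 0 in 11 and Slc45a2 at 0 in 10. The remaining values there were at most 0.0127 FPKM for Tyr, 0.171 for Mlana, 0.0250 for Slc45a2, 0.0356 for Dct, 0.346 for Pmel and 0.865 for Sox10.

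Mitf, which other cell types also transcribe from upstream starts, was alone among the 10 in passing the filter on low values in MC38. It measured 1.83, 2.76 and 1.84 FPKM in KO anti-PD-1, 1.51, 1.67 and 0.599 in KO PBS, 1.42, 1.74 and 1.52 in WT anti-PD-1 and 1.97, 1.79 and 2.38 in WT PBS. None of its 6 comparisons in MC38 was called by limma. Of the 14209 genes tested, the share called was 23.4% for KO against WT under PBS, 12.1% for KO against WT under anti-PD-1, 8.99% for anti-PD-1 against PBS in KO, 0% for the same in WT, 27.4% for KO against WT averaged over treatments and 2.44% for the interaction. For Mitf, KO against WT under PBS came closest, with a log2 difference of -0.46 (95% interval -0.88 to -0.05, limma adjusted p = 0.0992) and groups that did not overlap. The summed level of 12 macrophage markers, a cell type that expresses Mitf, was 1820 to 2415 FPKM in KO anti-PD-1, 529 to 1320 in KO PBS, 1651 to 1878 in WT anti-PD-1 and 1699 to 1995 in WT PBS, and its part in the Mitf values was not tested. MC38 KO anti-PD-1 replicate 2 had the highest Mitf, Sox10 and Dct of the 12 MC38 libraries.

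Within B16, the question was whether Chek2 loss or the antibody moved these genes. The KO tumours under anti-PD-1 differed from the other 3 groups in some of them and not in others. Tyrp1, Mitf and Tyr were lower there and Mlana was higher, both against WT tumours under anti-PD-1 and against KO tumours under PBS, and Oca2 was lower against WT. No gene of the 10 was called between the other groups. In bulk tumour RNA, fewer melanoma cells and less RNA per cell cannot be told apart. Against WT under anti-PD-1, 5 of 10 genes were called (1 higher and 4 lower), where 40.8% of 13627 genes were (14.9% higher, 25.9% lower), and the median log2 difference was -0.10 over the 10 and -0.05 over all genes. Against KO under PBS, 4 of 10 were called (1 higher and 3 lower), where 43.9% of genes were (18.9% higher, 25% lower), with medians of -0.05 and -0.03. The share called was thus near that of all genes in both. The comparisons share the 3 KO anti-PD-1 libraries.

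**Figure D2:**
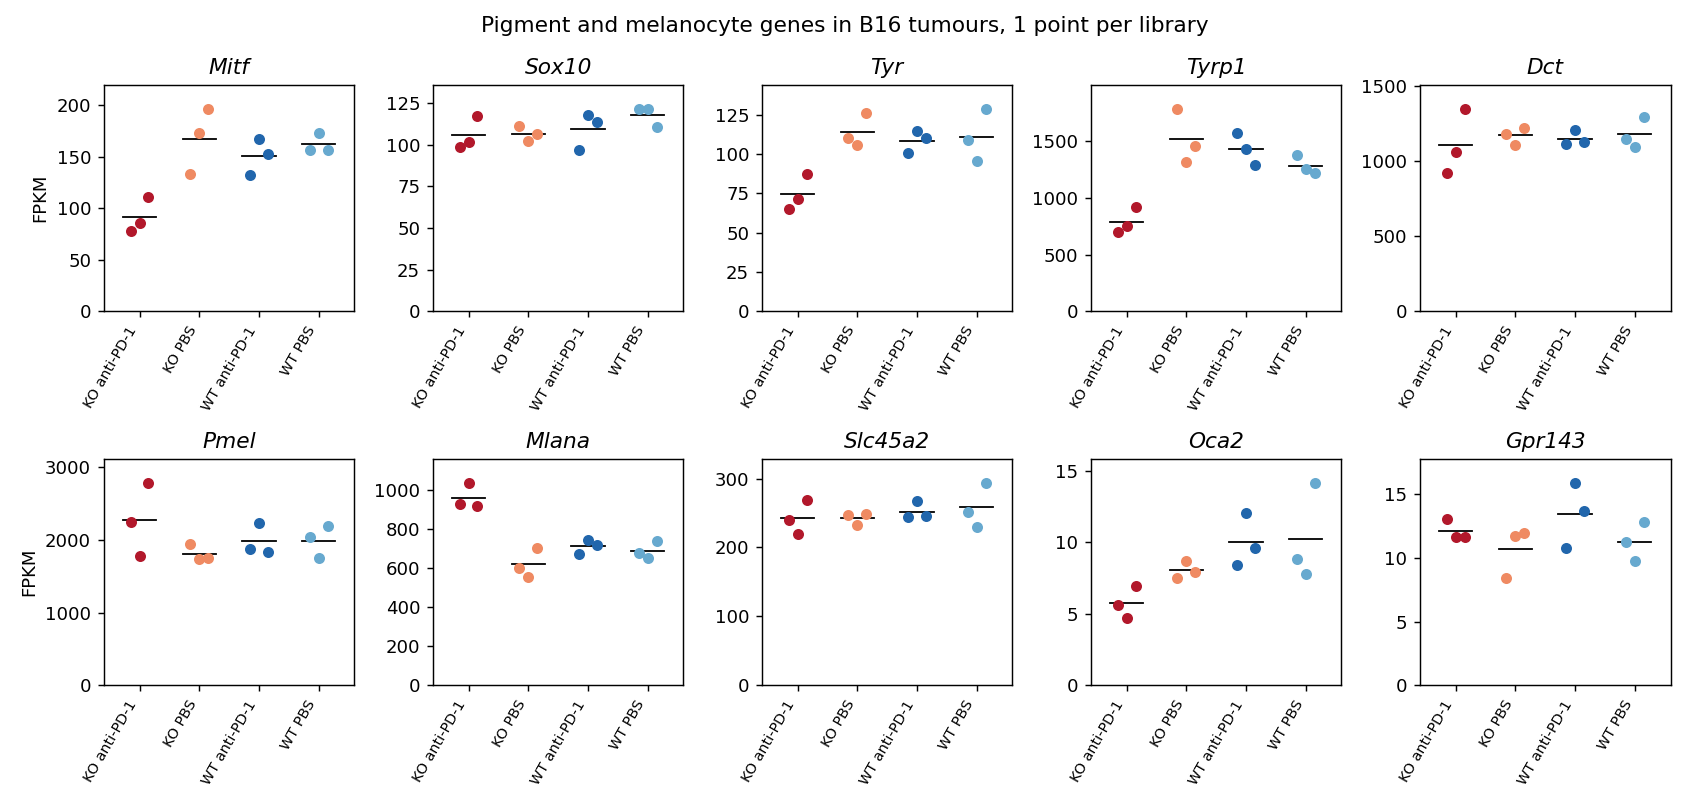
FPKM of each gene (y axis, from 0) in the 4 B16 groups (x axis), with 1 point per library and a line at the mean of 3. The 3 KO anti-PD-1 points lie below all 9 others for Mitf, Tyr, Tyrp1 and Oca2 and above all 9 for Mlana, and in the other panels they overlap the points of other groups.

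Of the transcription factors, Mitf fell and Sox10 was not called. Mitf measured 78.0, 85.3 and 110.7 FPKM in KO anti-PD-1 tumours, against 133.2, 172.6 and 196 in KO PBS, 132.3, 167.3 and 152.5 in WT anti-PD-1 and 156.2, 173.1 and 156.6 in WT PBS. The 3 KO anti-PD-1 libraries lay below all 9 others. The mean of 91.3 ± 17.2 was 1.65-fold below the 150.7 ± 17.6 of WT anti-PD-1 (SD, n = 3 each), a log2 difference of -0.73 ± 0.16 (SE; limma adjusted p = 0.00429), and 1.83-fold below the 167.3 ± 31.7 of KO PBS (-0.86 ± 0.16, limma adjusted p = 0.00162). Sox10 measured 98.6, 101.6 and 117.2 FPKM in KO anti-PD-1, 111.1, 102.0 and 106.3 in KO PBS, 96.6, 117.7 and 113.7 in WT anti-PD-1 and 121.2, 121.2 and 110.4 in WT PBS, and its groups overlapped. Its log2 difference was -0.05 (95% interval -0.25 to 0.16) against WT and -0.01 (-0.22 to 0.19) against PBS. The ratio of Mitf to Sox10 FPKM was 0.791, 0.840 and 0.945 in the KO anti-PD-1 libraries and 1.2 to 1.84 in the other 9.

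The 3 tyrosinase family enzymes differed from each other. Tyr measured 65.3, 71.6 and 87.1 FPKM in KO anti-PD-1, against 110.3, 105.8 and 125.9 in KO PBS, 100.5, 114.7 and 110.5 in WT anti-PD-1 and 109.0, 95.5 and 128.6 in WT PBS. All 3 KO anti-PD-1 libraries lay below the rest, and Tyr fell by 0.54 ± 0.13 on the log2 scale against WT (limma adjusted p = 0.00707) and by 0.61 ± 0.13 against PBS (limma adjusted p = 0.00366). Tyrp1 measured 703, 751 and 922 FPKM in KO anti-PD-1, against 1784, 1319 and 1458 in KO PBS, 1577, 1432 and 1292 in WT anti-PD-1 and 1376, 1259 and 1223 in WT PBS. The highest KO anti-PD-1 library stayed below the lowest of the other 9. Its mean of 792 ± 115 was 1.81-fold below WT anti-PD-1 (log2 difference -0.86 ± 0.13, limma adjusted p = 0.000646) and 1.92-fold below KO PBS (-0.94 ± 0.13, limma adjusted p = 0.000399), the largest differences among the 10. Dct measured 919, 1057 and 1343 FPKM in KO anti-PD-1, 1179, 1107 and 1221 in KO PBS, 1110, 1208 and 1124 in WT anti-PD-1 and 1144, 1089 and 1294 in WT PBS. Its KO anti-PD-1 libraries held both the lowest and the highest value of the 12, and the log2 difference was -0.07 (95% interval -0.35 to 0.21) against WT and -0.10 (-0.37 to 0.18) against PBS. Within a library the ratio of Tyrp1 to Dct was 0.765, 0.710 and 0.686 in KO anti-PD-1 and 0.945 to 1.51 in the other 9.

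Of the melanosome proteins, Mlana rose and Pmel was not called. Mlana measured 929, 1038 and 919 FPKM in KO anti-PD-1, against 600.1, 556.5 and 704.8 in KO PBS, 675, 745 and 717 in WT anti-PD-1 and 677, 653.5 and 739.9 in WT PBS. The 3 KO anti-PD-1 libraries lay above all 9 others. The log2 difference was 0.43 ± 0.10 against WT (limma adjusted p = 0.00557) and 0.64 ± 0.10 against PBS (limma adjusted p = 0.000629). Pmel measured 2254, 1781 and 2786 FPKM in KO anti-PD-1, 1943, 1744 and 1754 in KO PBS, 1872, 2231 and 1839 in WT anti-PD-1 and 2041, 1751 and 2187 in WT PBS, with overlap. Its difference against KO PBS was 0.30 (95% interval -0.03 to 0.64, limma adjusted p = 0.129), and it was called there without KO anti-PD-1 replicate 2 (limma adjusted p = 0.0215) and in a fit of all 24 libraries (0.0495), over alternatives 0.0215 to 0.949. Pmel shares 837 bases of genome with Cdk2 on the opposite strand, which measured 45.2 to 129 FPKM in B16, and the strand of counting is not stated. The ratio of Mlana to Tyrp1 was 1.32, 1.38 and 0.996 in KO anti-PD-1 libraries and 0.336 to 0.605 in the other 9.

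Of the transporters and the receptor, Oca2 fell against WT. Oca2 measured 5.59, 4.71 and 6.97 FPKM in KO anti-PD-1, against 7.48, 8.67 and 7.93 in KO PBS, 8.43, 12.04 and 9.63 in WT anti-PD-1 and 8.79, 7.77 and 14.2 in WT PBS. Its KO anti-PD-1 libraries lay below the other 9, with a log2 difference of -0.71 ± 0.20 against WT anti-PD-1 (limma adjusted p = 0.0161) and of -0.43 ± 0.20 against KO PBS (limma adjusted p = 0.101). The call against WT was lost without WT anti-PD-1 replicate 2 (limma adjusted p = 0.0583) or KO anti-PD-1 replicate 2 (0.0556), over alternatives 0.00117 to 0.0583. Against KO PBS it was called without WT PBS replicate 3 (limma adjusted p = 0.0380, over alternatives 0.0262 to 0.274). Slc45a2 was 239.2, 219 and 269.1 FPKM in KO anti-PD-1, 247.8, 233 and 248.9 in KO PBS, 243.6, 266.8 and 245.7 in WT anti-PD-1 and 252, 229.3 and 293.7 in WT PBS. Gpr143 was 13.04, 11.7 and 11.7 FPKM in KO anti-PD-1, 8.45, 11.7 and 11.9 in KO PBS, 10.8, 15.9 and 13.7 in WT anti-PD-1 and 11.3, 9.79 and 12.8 in WT PBS. The groups of Slc45a2 and Gpr143 overlapped and neither gene was called. The 95% intervals of the difference against WT anti-PD-1 were -0.28 to 0.16 for Slc45a2 and -0.47 to 0.22 for Gpr143.

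**Figure D3:**
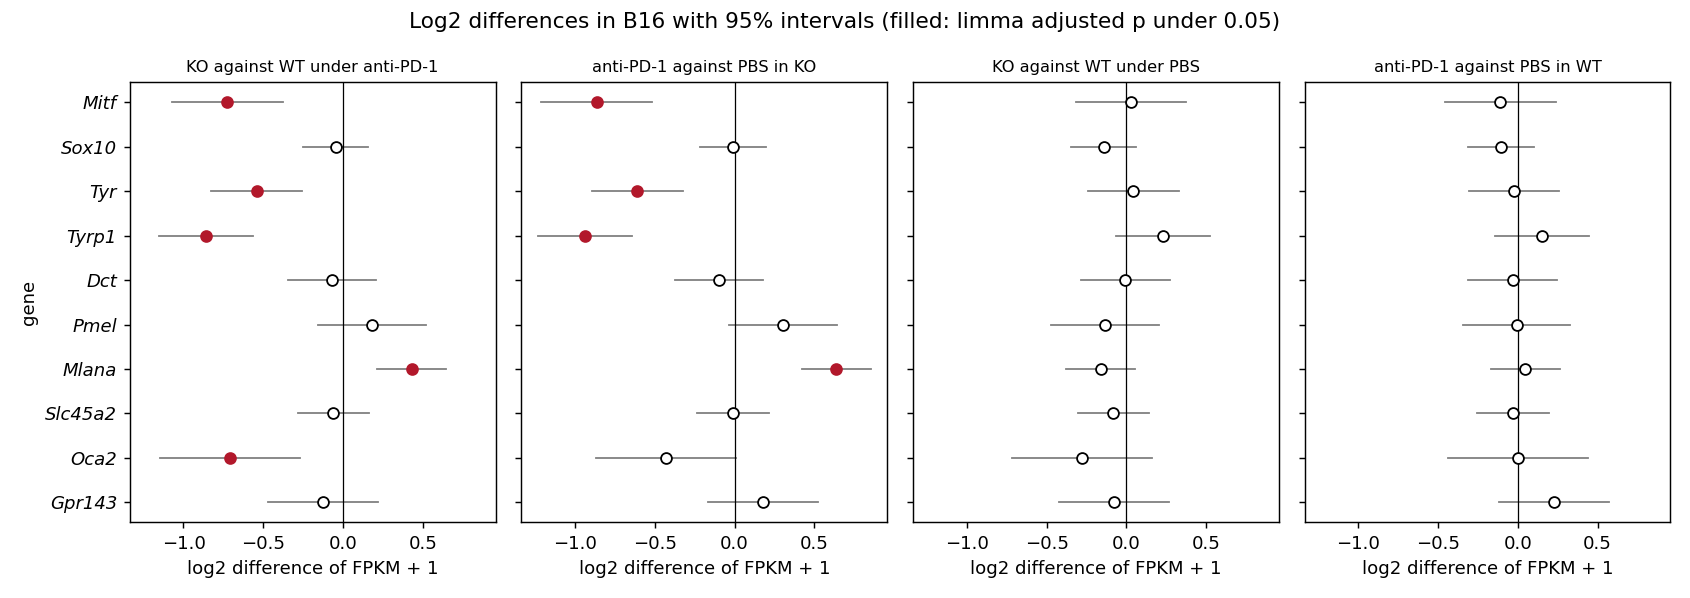
Log2 difference of FPKM + 1 (x axis) of the 10 genes (y axis) in the 4 comparisons of B16 groups, with 95% intervals as lines and called genes filled. The filled points stand at -0.94 to -0.54 for the genes that fell and at 0.43 and 0.64 for Mlana, and no point is filled in the 2 panels on the right, which hold no KO anti-PD-1 library.

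Transcript length moved with these differences over all genes. In the comparison of KO with WT under anti-PD-1, the median log2 difference was 0.51 over 513 protein-coding genes whose longest transcript is under 1000 bases, 0.33 from 1000 to 2000 bases, 0.11 from 2000 to 3000, -0.07 from 3000 to 4000, -0.26 from 4000 to 6000 and -0.57 over 6000. Mlana is the shortest of the 10 transcripts, at 906 bases, and Tyr (6042) and Mitf (4881) are the longest. Tyrp1, at 2720 bases, lies in a class whose median was 0.11, and Oca2 (3374) and Dct (3459) in the class with -0.07. With the trend on transcript length removed, Tyrp1 remained lower, with log2 differences of -0.89 against WT (limma adjusted p = 0.000912) and -1.01 against PBS (limma adjusted p = 0.000485). The Mitf differences were -0.44 (limma adjusted p = 0.0355) and -0.61 (0.00840). Tyr was no longer called, at -0.13 (limma adjusted p = 0.425) and -0.23 (0.155). Mlana was called against PBS (0.44, limma adjusted p = 0.00652) and not against WT (0.26, 0.0653), and Oca2 against WT (-0.64, limma adjusted p = 0.0341). Over 23 alternatives the adjusted p against WT ran from 1.56e-06 to 0.00695 for Tyrp1, 0.000845 to 0.101 for Mitf, 0.000252 to 0.425 for Tyr and 0.000271 to 0.431 for Mlana. Against PBS it ran from 6.36e-07 to 0.00604 for Tyrp1, 0.000514 to 0.0230 for Mitf, 7.65e-05 to 0.669 for Tyr and 4.59e-06 to 0.0587 for Mlana. With GC content removed as well, Mitf was called against PBS (-0.47) and not against WT (-0.32). The part of this trend in the main values was not tested.

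**Figure D4:**
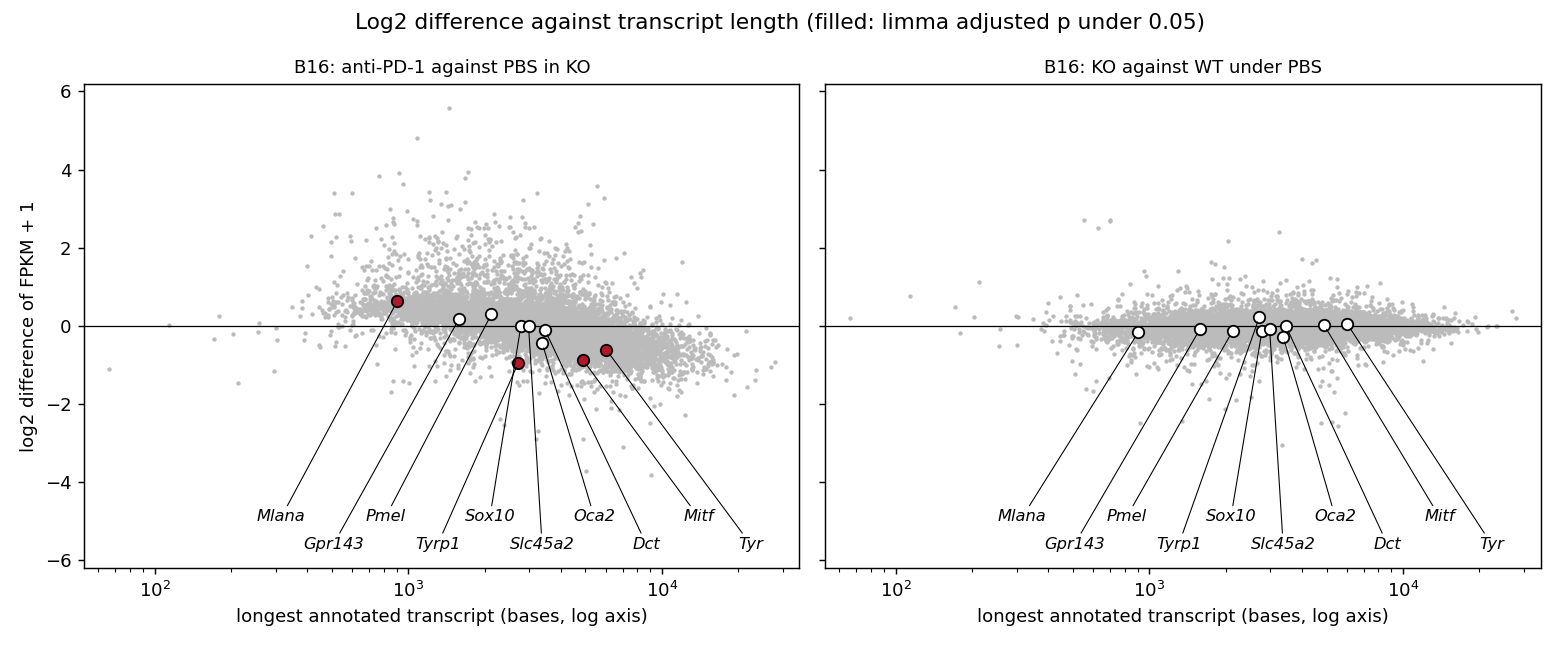
Log2 difference of FPKM + 1 (y axis) against the longest annotated transcript in bases (x axis, log scale) for tested protein-coding genes (grey) and the 10 pigment genes (circles, filled where called). Left, anti-PD-1 against PBS in KO, the cloud slopes downward (Spearman -0.626) and Tyrp1 lies below the bulk of genes of its length; right, KO against WT under PBS, it is flat (0.066).

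The scaling of the libraries also bore on the direction of the smaller differences. Rescaling protein-coding genes alone to equal sums moved genes by a median of -0.21 on the log2 scale against WT and of -0.18 against PBS, and the calls against WT were then 12.4% higher, in place of 36.6%, and against PBS 22.3%, in place of 43.1%. Quantile normalization moved genes by a median of 0.11 against WT. Mlana was then 0.18 above WT with protein-coding scaling (limma adjusted p = 0.172) and 0.14 with quantile normalization (0.431), while Sox10 (-0.29 and -0.37) and Slc45a2 (-0.31 and -0.42) were called lower against WT under both. Mitf, Tyr and Tyrp1 stayed lower and called against both groups under both of these and under median-ratio size factors.

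Markers of macrophages, T cells, fibroblasts and endothelium were also measured in these tumours. The 12 macrophage markers summed to 515 to 1342 FPKM in KO anti-PD-1, against 102 to 259 in KO PBS, 112 to 564 in WT anti-PD-1 and 182 to 292 in WT PBS, so that the ranges of KO and WT overlapped under anti-PD-1. The 10 T cell markers summed to 8.53 to 28.1 FPKM in KO anti-PD-1, against 0.574 to 1.62 in KO PBS, 0.958 to 7.21 in WT anti-PD-1 and 1.78 to 3.29 in WT PBS. The 10 fibroblast markers summed to 59.8 to 376 FPKM in KO anti-PD-1, against 14.3 to 25.3 in KO PBS, 16.1 to 167 in WT anti-PD-1 and 40.7 to 138 in WT PBS, so that KO and WT anti-PD-1 overlapped. The 8 endothelial markers summed to 26.9 to 52.8 FPKM in KO anti-PD-1 and 12.5 to 29.0 in the other 9 libraries. Against KO PBS, 10 of 12 macrophage, 4 of 4 tested T cell, 5 of 9 fibroblast and 4 of 7 endothelial markers rose, where 18.9% of all genes were called higher. Against WT anti-PD-1 3, 3, 1 and 1 of them did, where 14.9% of all genes were. The fibroblast and endothelial counts there were thus near the share of all genes. The T cell markers tested passed the filter, 1 FPKM in 3 libraries, mainly through KO anti-PD-1, so their counts were favoured in advance. Trac averaged 3.74 FPKM there, 0.083 in KO PBS and 0.721 in WT anti-PD-1, and Cd3d 1.87, 0.0229 and 0.296. With the length trend removed, 9, 3, 7 and 3 rose against KO PBS, where 2122 of 13627 genes were called higher. Against WT anti-PD-1 1, 3, 1 and 1 did, where 1813 were. No macrophage or fibroblast marker was at 0 in any B16 library, and 2 to 3 of the 10 T cell markers were at 0 in each KO PBS library and none in KO anti-PD-1. The 10 markers of skin epidermis summed to at most 0.622 FPKM, and none passed the filter. The part of the infiltrate in the pigment genes was not tested.

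Under PBS, KO and WT tumours were compared without the antibody. None of the 10 genes was called, where 0.470% of 13627 genes were, and the groups overlapped for every gene. Tyrp1 had the smallest unadjusted p, at 1520 ± 239 FPKM in KO and 1286 ± 80.0 in WT (log2 difference 0.23, 95% interval -0.06 to 0.53, limma adjusted p = 0.496). For Mitf the interval of the difference was -0.32 to 0.38, for Tyr -0.24 to 0.33 and for Dct -0.28 to 0.27. In WT tumours, anti-PD-1 against PBS gave no call among the 10 (percent called over all genes 0, with 281 genes at an unadjusted p under 0.05). The log2 differences of the 10 ran from -0.11 for Mitf (95% interval -0.46 to 0.24) to 0.23 for Gpr143 (-0.12 to 0.57), and all groups overlapped. Neither comparison uses the KO anti-PD-1 libraries.

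The difference between the antibody effects in KO and WT was tested as an interaction. It was called for 4 of 10 genes, where 23.5% of all genes were (8.90% higher, 14.6% lower): Tyrp1 (-1.09 ± 0.19, limma adjusted p = 0.00351), Mitf (-0.76 ± 0.22, 0.0332) and Tyr (-0.59 ± 0.18, 0.0404) with a lower response in KO, and Mlana (0.59 ± 0.14, 0.0132) with a higher one. With the length trend removed Tyrp1 alone was called (-1.17, limma adjusted p = 0.00487; over alternatives 2.18e-05 to 0.0238). The Tyrp1 and Mlana calls held whichever library was left out. The Mitf call was kept without WT anti-PD-1 replicate 1, WT PBS replicate 2, KO PBS replicate 1 or KO anti-PD-1 replicate 3 and lost without any of the other 8 (limma adjusted p 0.0620 to 0.0724). The Tyr call was kept without WT anti-PD-1 replicate 1, WT PBS replicate 3 or KO anti-PD-1 replicate 3 and lost without any of the other 9 (0.0509 to 0.0871). Averaged over treatments, Mitf (-0.35 ± 0.11, limma adjusted p = 0.0405), Tyrp1 (-0.31 ± 0.09, 0.0315) and Oca2 (-0.49 ± 0.14, 0.0253) were lower in KO than in WT, 3 of 10 where 26.5% of genes were called and 19% were lower. The KO PBS libraries overlapped those of WT PBS for each of these 3 genes. With 1 library left out, the Mitf call was kept without WT anti-PD-1 replicate 1, KO PBS replicate 3 or KO anti-PD-1 replicate 3 and lost without any of the other 9 (limma adjusted p 0.0608 to 0.0895). The Tyrp1 call was kept without WT anti-PD-1 replicate 3, WT PBS replicate 3, KO PBS replicate 1 or KO anti-PD-1 replicate 3 and lost without any of the other 8 (0.0560 to 0.0729). The Oca2 call was lost without WT anti-PD-1 replicate 2, KO PBS replicate 1 or KO anti-PD-1 replicate 2 (0.0539 to 0.0571). Tyr was called without WT PBS replicate 2 (0.0401) or KO anti-PD-1 replicate 3 (0.0256).

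The machinery that builds and moves melanosomes was followed with a list of 28 further genes, all tested in B16. Against WT under anti-PD-1, 4 rose and 8 fell in KO, where 14.9% of all genes were called higher and 25.9% lower. Against KO PBS 6 rose and 8 fell, where 18.9% of all genes were called higher and 25% lower. With the length trend left in, the shares of the list were near those of all genes. Its median log2 differences were 0.01 and 0.04 (-0.05 and -0.03 over all genes). Atp7a, the copper pump that loads tyrosinase, fell to 1.51 ± 0.434 FPKM in KO anti-PD-1, against 17.5 ± 1.29 in KO PBS, 17.8 ± 2.48 in WT anti-PD-1 and 17.9 ± 2.30 in WT PBS. Its log2 difference against WT was -2.91 (limma adjusted p = 9.59e-07), and -2.62 with the length trend removed, at a transcript of 4900 bases. Myo5a, the motor that carries melanosomes along actin, measured 11.2 ± 5.27 FPKM in KO anti-PD-1 and 39.0 ± 6.08 in WT anti-PD-1 (-1.79, limma adjusted p = 0.000258; transcript 11702 bases, -1.04 with the trend removed). Rab27a, the GTPase that links melanosomes to this motor, measured 51.3 ± 15.0 in KO anti-PD-1 and 91.9 ± 1.87 in WT anti-PD-1 (-0.87, limma adjusted p = 0.00188; -0.83 with the trend removed).

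Other genes of that list rose. Bloc1s1, a subunit of the BLOC-1 sorting complex, measured 27.0 ± 2.31 FPKM in KO anti-PD-1 and 17.2 ± 2.26 in WT anti-PD-1 (limma adjusted p = 0.00390), with a transcript of 613 bases. Mfsd12, a cysteine importer of melanosomes, measured 8.60 ± 1.44 in KO anti-PD-1 and 5.998 ± 0.903 in WT anti-PD-1 (limma adjusted p = 0.0173; transcript 3971 bases). Mc1r, the melanocortin receptor that raises Mitf through cAMP, rose to 25.6 ± 2.60 FPKM in KO anti-PD-1, against 17.6 ± 2.20 in KO PBS (limma adjusted p = 0.00440). Against WT anti-PD-1 Mc1r was not called (log2 difference 0.21, limma adjusted p = 0.162; 0.0495 with the length trend removed). Among genes of this list called against WT, the median transcript was 1939 bases for those that rose and 4926.5 for those that fell. With the trend removed, 6 of the 28 rose and 7 fell against WT, where 1813 of 13627 genes were called higher and 1984 lower.

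Of 14 tested lineage signals and factors, 1 rose and 2 fell against WT, and none rose and 2 fell against KO PBS, shares below the 40.8% and 43.9% called over all genes. Zeb2, a repressor needed for melanocyte differentiation, measured 4.80 ± 0.827 FPKM in KO anti-PD-1 and 9.10 ± 1.33 in WT anti-PD-1 (limma adjusted p = 0.000666), with a transcript of 9124 bases and adjusted p = 0.402 once the length trend was removed. S100b, a calcium-binding marker of the lineage, measured 153 ± 36.1 in KO anti-PD-1, 138 ± 8.62 in KO PBS, 99.3 ± 9.93 in WT anti-PD-1 and 95.4 ± 14.9 in WT PBS (limma adjusted p = 0.0152 under anti-PD-1, 0.103 with the trend removed). Under PBS its KO and WT groups did not overlap and it was not called (limma adjusted p = 0.208). Averaged over treatments it was called higher in KO (0.57, limma adjusted p = 0.00575). In KO it was not called between anti-PD-1 and PBS (0.13, limma adjusted p = 0.563). Of 15 tested MITF targets outside pigment, 4 rose and 5 fell in each of the 2 comparisons, where 14.9% of all genes were called higher and 25.9% lower against WT, and 18.9% and 25% against KO PBS. Met, the receptor of hepatocyte growth factor, fell to 8.99 ± 2.65 FPKM in KO anti-PD-1, against 44.6 ± 2.05 in WT anti-PD-1 (log2 difference -2.22, limma adjusted p = 2.62e-05; -1.73 with the trend removed). Ppargc1a, a coactivator of mitochondrial genes, measured 20.7 ± 2.31 in KO anti-PD-1 and 39.5 ± 3.72 in WT anti-PD-1 (limma adjusted p = 0.000783; 0.0612 with the trend removed). Of the genes of that list that rose against WT, Bcl2a1b (log2 difference 1.81, limma adjusted p = 0.0202), Bcl2a1d (1.41, 0.0115) and Acp5 (1.05, 0.0119) are also expressed by macrophages and other blood cells. With the length trend removed Acp5 was not called against WT (limma adjusted p = 0.0546). Acp5 averaged 2.96 FPKM in KO anti-PD-1, 0.588 in KO PBS and 0.990 in WT anti-PD-1, and Bcl2a1d 5.15, 0.579 and 1.26. They may thus have passed the filter of 1 FPKM largely through KO anti-PD-1, which would favour their calls in advance. The Bcl2a1 genes are near-identical copies, so how their reads were split is uncertain. Cdkn1a, the cell cycle inhibitor p21, was also higher than in WT (0.75, limma adjusted p = 0.00130) and was not called against KO PBS (0.11, 0.527). Under PBS Cdkn1a measured 67.1 ± 2.09 FPKM in KO and 45.0 ± 3.35 in WT, without overlap and not called (limma adjusted p = 0.103). Averaged over treatments it was called higher in KO (0.66, limma adjusted p = 0.000809).

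Genes of undifferentiated melanoma and neural crest made a list of 16, of which 9 passed the filter in B16. Against WT under anti-PD-1, 1 rose and 2 fell, and against KO PBS 2 rose and 2 fell, near the 40.8% and 43.9% called over all genes, with medians of 0.21 and 0.41. Tnc, the matrix protein tenascin C, rose against KO PBS (log2 difference 1.87, limma adjusted p = 0.0102), as did Aqp1, a water channel (1.02, 0.00505). Tnc measured 7.72 ± 6.69 FPKM in KO anti-PD-1, with a wide spread, and 1.00 ± 0.0536 in KO PBS. Those that fell were Tead4, a partner of YAP, with a log2 difference of -0.76 against KO PBS (limma adjusted p = 0.00465) and -0.51 against WT (0.0316), and Sox4, a SOX transcription factor, with -0.38 (0.0423) and -0.64 (0.00410). With the length trend removed Sox4 was not called against KO PBS (limma adjusted p = 0.416). Fibroblasts express Tnc and endothelium expresses Aqp1, and the part of those cells was not tested. Under PBS no gene of the 4 lists was called between KO and WT, and in WT none was called between anti-PD-1 and PBS. Between the lines, in WT PBS tumours, 12 of 14 tested genes of the undifferentiated list were lower in B16 and 1 was higher. Of all genes tested, 62.3% were called there in either direction and 31.2% were higher in B16. In the same comparison 11 of 12 macrophage and 6 of 10 fibroblast markers were also lower in B16, and the part of those cells was not tested.

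The genes whose pattern was most like the mean of the 10 over the 12 B16 libraries were Rab5b, a GTPase of early endosomes (Pearson r = 0.932, and 0.874 over the 9 libraries without KO anti-PD-1), Atg4c, a protease of autophagy (0.921 and 0.901), and Dnajc16, a gene of the DnaJ co-chaperone family (0.894 and 0.843). Nob1, a ribosome assembly factor, was the most opposite (-0.942 and -0.955). The other 7 of the 10 most like genes had r of 0.863 to 0.885 and the other 4 of the 5 most opposite -0.875 to -0.868. Over the 9 libraries, 33 of the 45 pairs among the 10 genes had a positive r, with a median of 0.340. The highest was Tyr with Dct (0.926) and the lowest Mitf with Tyrp1 (-0.523). These values describe libraries that share their scaling and depth and carry no test.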

How the data were processed

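RNA was extracted from tumour tissue with Trizol and made into libraries by standard Illumina protocols, per the labels' protocols. The submitters' processing notes name FastQC, STAR 2.5, Cuffnorm and DESeq and the build mm10. The annotation release, strand and filters are not given in the sources used here. The deposited values, 1 column per library, were taken as FPKM made by the authors, from their unequal sums and non-whole values. Low values were whole multiples of the unit taken as 1 read (within 0.02) in only 3.45% to 17.5% of cases, so no count test was run. Symbols and transcript lengths came from the GENCODE mouse annotation of the same build, which matched 55154 IDs and not 181.

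Groups came from the labels. For genes that reached 1 FPKM in 3 or more of a line's 12 libraries, log2(FPKM + 1) was fitted in R 4.3.3 with limma 3.58.1, with 1 mean per group and a variance trend, and p-values were adjusted over all genes tested. Lines were compared in a fit of all 24 libraries. The steps were tested on simulated data. Named were the 10 genes, Chek2, up to 3 called genes per list and direction (the most expressed where none was called), and the genes most like or opposite the mean of the 10. Rab27a fell under this rule as an MITF target. Members and lists were chosen with earlier results of these data known. Alternatives were the pseudocount, filter, scaling, variance trend, samples in the fit, gene class and each library left out. Removing trends on length or GC (lowess per library) was added after seeing the data. Promoters came from RefSeq, GRCm38.p6.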

Additional observations from a re-analysis of the deposited data

Results flagged for a closer look

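In 4 of the 10 genes, the response to anti-PD-1 differed between KO and WT B16 tumours by the test of the interaction itself, on the log2(FPKM + 1) scale. Of all 13627 genes tested, 23.5% were called for it (8.90% higher, 14.6% lower). The difference of responses was -0.755 for Mitf, -0.587 for Tyr, -1.092 for Tyrp1 and 0.591 for Mlana. Each rests on the 3 KO anti-PD-1 libraries, which also carry the transcript length trend, and with that trend removed limma called Tyrp1 and not the other 3. Groups held 3 libraries, too few for a test of single outlying libraries.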

How the results depend on the processing

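The 5 genes called between KO and WT under anti-PD-1 numbered 4 to 5 as each library was left out in turn and 3 with the trend on transcript length, on mean transcript length, or on length and GC content removed. The 4 called between anti-PD-1 and PBS in KO numbered 3 to 6 over all alternatives. The 3 called between KO and WT averaged over treatments were the least stable: 0 without the filter on low values, 1 with median-ratio size factors, 6 with protein-coding genes alone, 1 with the length trend removed, 0 with the mean length trend or with length and GC removed, and 0 to 4 with a library left out. The interaction counted 1 without the filter, 1 with the length or mean length trend removed, 2 with length and GC removed and 2 to 4 with a library left out, in place of 4. Counts of 0 and of 10 elsewhere did not move under the alternatives run.

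Tyr turned positive with length and GC trends removed, at 0.127 against WT, 0.07 against PBS, 0.088 averaged and 0.078 in the interaction, without being called. Sox10 turned positive with median-ratio size factors (0.025 against WT, 0.029 against PBS) and with mean length removed (0.078 in both), and ran from -0.132 to 0.009 against WT and from -0.087 to 0.036 against PBS with 1 library left out. Slc45a2 did so with median-ratio size factors (0.011 and 0.032) and with mean length removed (0.277, then 0.298 with a call, and 0.116 averaged), and ran from -0.137 to 0.011 and from -0.087 to 0.061 with 1 library left out. Another 79 changes of sign fell on differences that no alternative called. The causes were not tested. Removing the trends was chosen after seeing the data.

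No paired analysis was possible because the labels give library codes and no replicate numbers shared between groups. In MC38, 9 of the 10 genes stayed under the filter and were not tested there. With 3 libraries a group, small differences in Dct, Sox10, Slc45a2 and Gpr143 are bounded by the intervals given and not shown to be absent.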

Other observations

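The antisense gene 4930435M08Rik, chosen for mention after its values were seen, shares 1891 bases of genome with Dct on the opposite strand. It measured 2.39, 3.27 and 6.71 FPKM in B16 KO anti-PD-1 tumours, against 42.3 to 73.1 in the other 9 B16 libraries and 0 in all 12 of MC38. The log2 difference against WT under anti-PD-1 was -3.77 ± 0.25 (limma adjusted p = 8.87e-06), while Dct itself differed by -0.07 and was not called. Under PBS the antisense gene was 53.1 ± 10.3 FPKM in KO and 62.5 ± 9.19 in WT (limma adjusted p = 0.744). The strand of counting is not stated, so reads of this gene and of Dct RNA from the shared bases cannot be told apart.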
